A study of Homo sapiens with 12 samples.

Results

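The major histocompatibility complex (MHC) class II presentation genes are 10 genes, chosen by symbol from the array annotation, of 18419 genes measured: CIITA, HLA-DRA, HLA-DPA1, HLA-DPB1, HLA-DQA1, CD74, HLA-DMA, HLA-DMB, HLA-DOA and CTSS. They were read in side population (SP) and main population (MP) cells of 4 human anaplastic large cell lymphoma (ALCL) lines. SP cells are those that keep little of the Hoechst DNA dye, which transporters pump out, and MP cells are the stained remainder. DEL, Karpas299 and SUPM2 have 1 SP and 1 MP array each and SUDHL-1 has 3 of each, which makes 12 arrays; all lines grew untreated in log phase in RPMI medium with 10% serum, and all cells, MP included, were stained and sorted. Each line stands for 1 patient's tumour grown in culture. Sorting was done in triplicate per the design text, which does not mention separate cultures. The p-values within SUDHL-1 and between lines therefore measure spread between arrays that may be technical. Those of SP minus MP over the 4 lines measure spread between the line differences. In such bulk samples, fewer class II positive cells and less RNA per cell cannot be told apart.

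MHC class II molecules are alpha and beta chain pairs (DR, DP and DQ) that show peptides from endosomes to CD4 T cells. CIITA, the coactivator that switches the class II genes on, is brought to their promoters by the RFX and NF-Y factors, and NF-Y binds a short element called the Y box. The invariant chain CD74 fills the groove of a new class II pair, the protease cathepsin S (CTSS) trims CD74 down, and HLA-DM then exchanges the remaining fragment for peptide while HLA-DO restrains HLA-DM. Activated human T cells, the lineage from which ALCL arises, can express class II.

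Promoter windows, which run from 250 bases before to 50 bases after a gene's start (RefSeq, GRCh38.p14), were found for 7 of the 10 genes, with 2 windows for HLA-DPA1. The 4 printed here come from genes of 3 roles and are marked for the core letters of the element that NF-Y binds. HLA-DQA1 is a peptide-binding chain, HLA-DMA and HLA-DOA belong to the peptide exchange step, and CD74 is the chaperone, on another chromosome. HLA-DMA lies at chr6:32953048-32953347 on the minus strand, HLA-DOA at chr6:33009542-33009841 on the minus strand, HLA-DQA1 at chr6:32637156-32637455 on the plus strand and CD74 at chr5:150412861-150413160 on the minus strand. Capitals mark ATTGG, the core of the Y box, and CCAAT, the same core read on the other strand.
HLA-DMA: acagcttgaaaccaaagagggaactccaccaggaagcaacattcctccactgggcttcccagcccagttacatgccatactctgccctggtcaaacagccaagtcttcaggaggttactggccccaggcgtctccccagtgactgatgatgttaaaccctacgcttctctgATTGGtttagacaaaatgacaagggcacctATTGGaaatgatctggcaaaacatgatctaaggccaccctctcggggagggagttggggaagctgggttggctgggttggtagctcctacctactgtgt
HLA-DOA: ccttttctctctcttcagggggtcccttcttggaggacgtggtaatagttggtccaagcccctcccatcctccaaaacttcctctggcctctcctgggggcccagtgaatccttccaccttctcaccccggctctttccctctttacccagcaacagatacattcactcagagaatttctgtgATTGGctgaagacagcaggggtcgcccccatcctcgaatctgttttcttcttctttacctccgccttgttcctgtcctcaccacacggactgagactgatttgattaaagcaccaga
HLA-DQA1: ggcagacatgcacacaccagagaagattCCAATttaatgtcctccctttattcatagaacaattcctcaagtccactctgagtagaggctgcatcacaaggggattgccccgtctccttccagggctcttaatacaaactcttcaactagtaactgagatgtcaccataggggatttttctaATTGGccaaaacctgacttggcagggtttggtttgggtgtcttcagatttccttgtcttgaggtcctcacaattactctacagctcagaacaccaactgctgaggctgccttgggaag
CD74: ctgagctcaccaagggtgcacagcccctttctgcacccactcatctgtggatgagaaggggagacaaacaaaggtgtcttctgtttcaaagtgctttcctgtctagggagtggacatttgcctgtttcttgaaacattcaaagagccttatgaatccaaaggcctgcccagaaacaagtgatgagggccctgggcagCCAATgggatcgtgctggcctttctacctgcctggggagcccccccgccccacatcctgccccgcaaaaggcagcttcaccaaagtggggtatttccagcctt

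ATTGG on the gene's strand starts 67 bases before the gene's start in HLA-DOA, 68 in HLA-DQA1, and 79 and 49 in HLA-DMA, which holds it 2 times. CD74 holds CCAAT alone, 53 bases before its start. Searched on both strands, the core was in 6 of the 8 windows and in 34.6% of all 35116 promoters of this length. HLA-DMB holds CCAAT, HLA-DPB1 holds the core on both strands, and neither window of HLA-DPA1 holds these letters. A match describes letters of the reference genome and is not a mapped binding site.

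The class II genes divided the lines. DEL, Karpas299 and SUPM2 had high signals for the DR, DP and DM chains and CD74, and SUDHL-1 had lower signals. The gaps were 3.41 to 7.49 on the log2 scale for these 6 genes. Cells sorted as SP and as MP of a line lay close together by comparison, and no member passed the test between them. Among the 3 lines with high class II signals, 6 members also differed in at least 1 pair of lines: HLA-DQA1, CTSS, HLA-DOA, HLA-DMB, HLA-DPB1 and HLA-DMA.

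**Figure D1:**
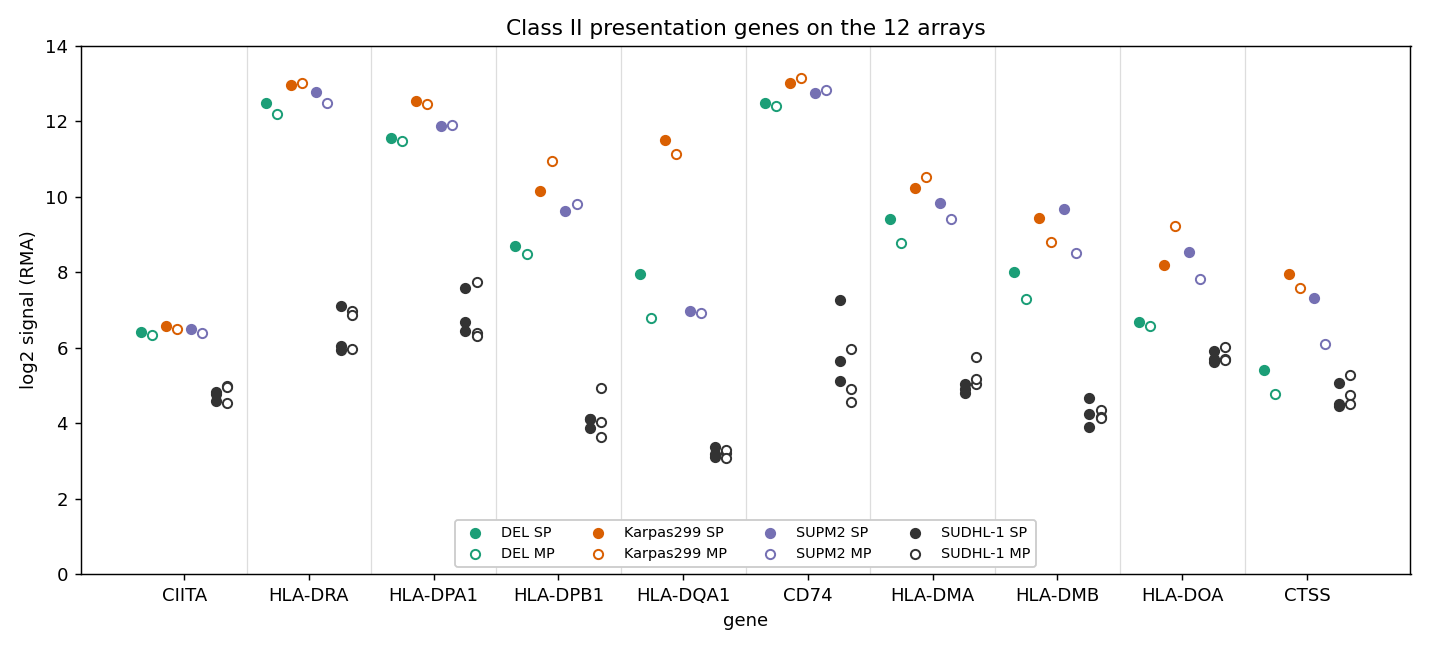
Log2 signal (RMA) of the 10 class II presentation genes on each of the 12 arrays. Filled points are SP and open points MP arrays, coloured by line; SUDHL-1 (black) lies below the other lines for 9 of 10 genes, and CTSS in DEL overlaps it.

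CIITA, the regulator, had log2 signals of 6.42 in SP and 6.35 in MP cells of DEL, 6.57 and 6.50 in SP and MP cells of Karpas299, and 6.49 and 6.40 in SP and MP cells of SUPM2, whereas the 6 SUDHL-1 arrays ran from 4.55 to 4.98 with a median of 4.81. The 3 high lines lay close together and none of their arrays overlapped SUDHL-1. The difference from SUDHL-1 was 1.60 for DEL, 1.76 for Karpas299 and 1.66 for SUPM2, each with a standard error (SE) of 0.15 and an adjusted p of 1.91e-05, 1.03e-05 and 1.08e-05 by limma with Benjamini-Hochberg adjustment over all 18419 genes. Among DEL, Karpas299 and SUPM2 no pair of lines passed the test for CIITA, the widest gap being DEL minus Karpas299 at -0.15 with a 95% interval of -0.56 to 0.26.

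Among the peptide-binding chains, HLA-DRA encodes the alpha chain of HLA-DR. Its probe sets also name HLA-DQA1. HLA-DRA had a log2 signal of 12.49 in SP and 12.19 in MP cells of DEL, 12.97 and 13.02 in SP and MP cells of Karpas299, and 12.78 and 12.48 in SP and MP cells of SUPM2, against 5.95 to 7.10 with a median of 6.47 in SUDHL-1. All 6 arrays of the 3 lines lay above all 6 of SUDHL-1. In SUDHL-1, HLA-DRA still stood at percentiles 64.2 to 77.2 of the probe sets on an array. Against SUDHL-1, the signal was higher in DEL, Karpas299 and SUPM2 by 5.85, 6.51 and 6.14, which is 57.8-fold, 91-fold and 70.7-fold, with an SE of 0.33 and adjusted p of 6.34e-07, 3.07e-07 and 3.47e-07 (limma). These gaps ranked 15, 10 and 12 from the top among all genes.

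HLA-DPA1 and HLA-DPB1 encode the alpha and beta chains of HLA-DP. HLA-DPA1 read 11.57 in SP and 11.49 in MP cells of DEL, 12.53 and 12.47 in SP and MP cells of Karpas299, and 11.87 and 11.90 in SP and MP cells of SUPM2, against 6.31 to 7.75 with a median of 6.57 in SUDHL-1. HLA-DPB1 read 8.71 in SP and 8.48 in MP cells of DEL, 10.16 and 10.94 in SP and MP cells of Karpas299, and 9.62 and 9.80 in SP and MP cells of SUPM2, against 3.64 to 4.92 with a median of 4.07 in SUDHL-1. Both chains were lower on every SUDHL-1 array than on every other array. In SUDHL-1, HLA-DPA1 still stood at percentiles 69.3 to 81.8 of the probe sets on an array, and HLA-DPB1 at 29.8 to 50.4. The gaps of DEL, Karpas299 and SUPM2 above SUDHL-1 were 4.66, 5.63 and 5.02 in HLA-DPA1 (SE 0.37) and 4.48, 6.44 and 5.60 in HLA-DPB1 (SE 0.29), and all 6 differences passed, with adjusted p of at most 5.96e-06 (limma).

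HLA-DQA1, the alpha chain of HLA-DQ, stood apart from the other chains. Its signal was 7.96 in SP and 6.79 in MP cells of DEL, 11.51 and 11.13 in SP and MP cells of Karpas299, and 6.99 and 6.93 in SP and MP cells of SUPM2, against 3.07 to 3.36 with a median of 3.21 in SUDHL-1. Karpas299 was high, DEL and SUPM2 were between, and SUDHL-1 was low, with no overlap between those 3 levels. Karpas299 minus SUDHL-1 was 8.11 (277-fold, SE 0.22, adjusted p = 6.46e-09), which ranked 2 among all genes, and Karpas299 also exceeded SUPM2 by 4.36 (20.5-fold, SE 0.27, adjusted p = 5.05e-06, limma). DEL minus SUPM2 was 0.42 with a 95% interval of -0.17 to 1.01 and did not pass (adjusted p = 0.409). How large the gap is depended on the probe set: of those that name HLA-DQA1 together with HLA-DQA2, a near copy of it, the brightest read 10.78 in DEL, 12.57 in Karpas299 and 10.60 in SUPM2, against 4.56 in SUDHL-1 (means of each line's arrays), a Karpas299 minus SUPM2 difference of 1.98 in place of 4.36. Class II chains vary between people in sequence, and whether the probes match the alleles of each line was not tested.

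The chaperone followed the same division. CD74, the invariant chain, read from a probe set that also names ROS1, had a signal of 12.49 in SP and 12.40 in MP cells of DEL, 13.01 and 13.14 in SP and MP cells of Karpas299, and 12.75 and 12.83 in SP and MP cells of SUPM2. In SUDHL-1 it read 5.64, 5.13 and 7.27 on the 3 SP arrays and 4.91, 4.58 and 5.98 on the 3 MP arrays. Karpas299, SUPM2 and DEL lay close together, while the SUDHL-1 arrays spread over 2.69 with SP replicate 3 highest. The excess over SUDHL-1 in DEL, Karpas299 and SUPM2 was 6.86, 7.49 and 7.21, or 116-fold, 180-fold and 148-fold (SE 0.52; adjusted p of 4.61e-06, 2.51e-06 and 2.23e-06, limma), ranking 5, 5 and 4 among all genes.

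HLA-DMA and HLA-DMB are the chains of HLA-DM, the peptide exchange factor. HLA-DMA gave signals of 9.40 in SP and 8.77 in MP cells of DEL, 10.23 and 10.53 in SP and MP cells of Karpas299, and 9.85 and 9.41 in SP and MP cells of SUPM2, against 4.80 to 5.76 with a median of 5.05 in SUDHL-1. HLA-DMB gave signals of 8.0 in SP and 7.31 in MP cells of DEL, 9.44 and 8.80 in SP and MP cells of Karpas299, and 9.67 and 8.50 in SP and MP cells of SUPM2, against 3.91 to 4.66 with a median of 4.20 in SUDHL-1. Neither gene's SUDHL-1 arrays overlapped those of another line. DEL, Karpas299 and SUPM2 minus SUDHL-1 came to 3.97, 5.26 and 4.51 for HLA-DMA and to 3.41, 4.88 and 4.84 for HLA-DMB, and all passed with adjusted p of at most 4.02e-06 (limma).

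HLA-DOA, the alpha chain of the HLA-DM inhibitor HLA-DO, and CTSS showed smaller gaps than the peptide-binding chains. HLA-DOA read 6.69 in SP and 6.57 in MP cells of DEL, 8.20 and 9.22 in SP and MP cells of Karpas299, and 8.53 and 7.82 in SP and MP cells of SUPM2, against 5.61 to 6.03 with a median of 5.70 in SUDHL-1. CTSS read 5.42 in SP and 4.77 in MP cells of DEL, 7.96 and 7.59 in SP and MP cells of Karpas299, and 7.31 and 6.11 in SP and MP cells of SUPM2, against 4.45 to 5.28 with a median of 4.63 in SUDHL-1. HLA-DOA in DEL lay just above SUDHL-1, and CTSS in DEL overlapped it. DEL minus SUDHL-1 was 0.86 for HLA-DOA (SE 0.26, adjusted p = 0.0224) and 0.33 for CTSS (95% interval -0.36 to 1.02, adjusted p = 0.411), so the second did not pass (limma). Against SUDHL-1, Karpas299 and SUPM2 were higher by 2.94 and 2.40 in HLA-DOA and by 3.02 and 1.95 in CTSS, all past the test with adjusted p of at most 0.000447.

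**Figure D2:**
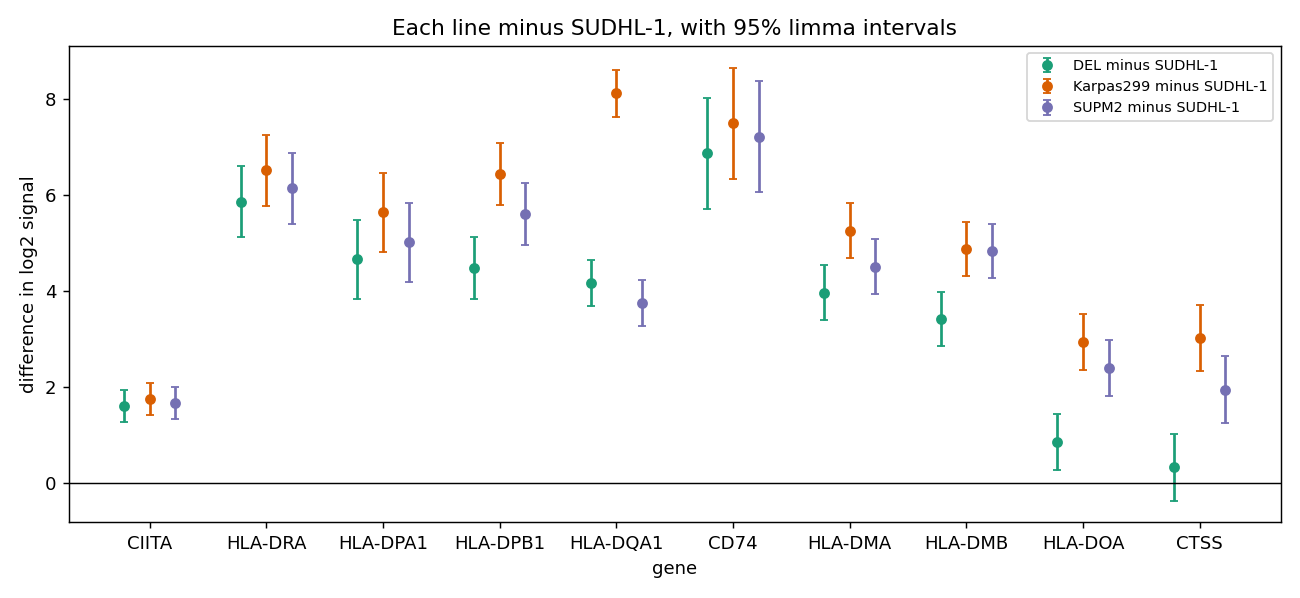
Difference in log2 signal of DEL, Karpas299 and SUPM2 minus SUDHL-1 for each gene, with 95% limma intervals from the 12 arrays. Every interval lies above 0 except that of CTSS in DEL, and HLA-DQA1 in Karpas299 (8.11) is the highest point.

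Counted together, members higher than in SUDHL-1 past the test numbered 9 of 10 in DEL, 10 in Karpas299 and 10 in SUPM2, beside 33.9%, 36.6% and 42.6% of all genes. SUDHL-1 also stood apart from the other lines as a whole. The array medians were 5.24 to 5.35 in DEL, Karpas299 and SUPM2 and 4.83 to 5.0 in SUDHL-1. Arrays of DEL, Karpas299 and SUPM2 correlated with those of another of the 3 lines at 0.923 to 0.952 and with SUDHL-1 arrays at 0.855 to 0.908. The median gene was 0.28, 0.31 and 0.37 higher in DEL, Karpas299 and SUPM2 than in SUDHL-1. Any difference in how the SUDHL-1 arrays were made and the line itself cannot be told apart. Of the genes called, 75.3%, 75.4% and 74.1% were higher than in SUDHL-1 as deposited, 54.3%, 55.7% and 55.5% after the arrays were quantile normalized again, and 44.1%, 47.2% and 43.7% after each array was centred on its median. Called higher as deposited were 6236, 6740 and 7838 of the 18419 genes. Quantile normalization left 3396, 3681 and 4215, and median centring left 2950, 3196 and 3339. List counts under these scalings, given below, are to be read beside those numbers. Under both of those scalings the members called were 8, 10 and 10, HLA-DOA in DEL being the one lost. A stricter rule, chosen after the values were seen, asked also for a gap of at least 2 log2 units: it took 7, 9 and 8 members for DEL, Karpas299 and SUPM2 and 3.28%, 3.19% and 3.5% of all genes. All 6 arrays of DEL, Karpas299 and SUPM2 lay above all 6 of SUDHL-1 for 9 members, CTSS being the exception, and for 29.1% of all genes.

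Among the 3 lines with high signals the order of line means was Karpas299, SUPM2, DEL in 9 of 10 members, and Karpas299, DEL, SUPM2 in HLA-DQA1. In SP cells SUPM2 lay above Karpas299 for HLA-DMB (9.67 against 9.44) and HLA-DOA (8.53 against 8.20). The share of all genes in the order Karpas299, SUPM2, DEL was not counted. Neighbours in that order often did not differ past the test: Karpas299 and SUPM2 differed in 1 member, HLA-DQA1 (higher calls: 6.58% of all genes), and DEL was lower than SUPM2 in 3 members, CTSS, HLA-DMB and HLA-DOA (lower calls: 2.74%). These 3 differences were -1.62, -1.43 and -1.54, with adjusted p of 0.0254, 0.0173 and 0.0135 (limma). DEL was lower than Karpas299 in 6 members (lower calls: 2.25%). The sizes were -3.94 for HLA-DQA1, -2.69 for CTSS, -2.08 for HLA-DOA, -1.96 for HLA-DPB1, -1.47 for HLA-DMB and -1.29 for HLA-DMA, the last with an adjusted p of 0.0425 that held in 4 of 16 alternatives. For the genes that did not pass, DEL minus Karpas299 was -0.66 for HLA-DRA (95% interval -1.56 to 0.25), -0.63 for CD74 (-2.04 to 0.78), -0.97 for HLA-DPA1 (-1.98 to 0.03) and, as above, -0.15 for CIITA.

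SP and MP cells of a line were then compared for the same genes. No member passed the test in SUDHL-1 (0 of 10, with 0% of all genes called) or over the 4 lines taken as 4 paired differences (0 of 10, again 0%), while 577 and 905 of the 18419 genes had an unadjusted p under 0.05 (limma). HLA-DMB showed the largest mean difference. Its SP minus MP values were 0.70 in DEL, 0.64 in Karpas299, 1.17 in SUPM2 and 0.06 in SUDHL-1, with a mean of 0.64 ± 0.45 (SD, n = 4 lines), an unadjusted p of 0.0131 and an adjusted p of 0.918 (limma). CTSS followed with 0.65 in DEL, 0.37 in Karpas299, 1.21 in SUPM2 and -0.18 in SUDHL-1, a mean of 0.51 ± 0.58 (adjusted p = 0.918, limma). Both were higher in SP than MP cells of the 3 lines with single arrays, and both sat near 0 in SUDHL-1.

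HLA-DQA1 gave SP minus MP values of 1.16 in DEL, 0.38 in Karpas299, 0.06 in SUPM2 and 0.03 in SUDHL-1, so the DEL pair made most of its mean of 0.41 ± 0.53. HLA-DOA ran both ways, at 0.13, -1.03, 0.71 and -0.05 in DEL, Karpas299, SUPM2 and SUDHL-1. So did HLA-DMA, at 0.63, -0.30, 0.44 and -0.40 in the same order of lines. HLA-DPB1 read 0.23, -0.78, -0.18 and -0.17. For HLA-DOA, HLA-DPB1 and HLA-DPA1 the direction in SUPM2 depended on the probe set. Another HLA-DOA probe set read 8.64 in SP and 8.71 in MP cells of SUPM2. Other HLA-DPB1 probe sets read 9.337 in SP and 9.331 in MP cells, and 8.75 and 8.63. For HLA-DPA1, another probe set read 11.91 in SP and 11.90 in MP cells of SUPM2. The remaining chains and the regulator stayed within 0.30 of 0 in every line: HLA-DRA between -0.24 and 0.30, HLA-DPA1 between -0.03 and 0.09, and CIITA between -0.10 and 0.09. In SUDHL-1, CD74 was 0.86 higher in SP than MP cells (95% interval -0.50 to 2.21). The size of this difference depended on the arrays kept, and without SP replicate 3 it was 0.23. Replicate 3 was the highest array in both populations, at 7.27 in SP and 5.98 in MP cells, so leaving out the SP array alone lowers 1 side only. The sign changed in 0 of 15 alternatives, and the difference passed the test in 0 of them (limma). The CD74 difference was 0.09 in DEL, -0.13 in Karpas299 and -0.08 in SUPM2.

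**Figure D3:**
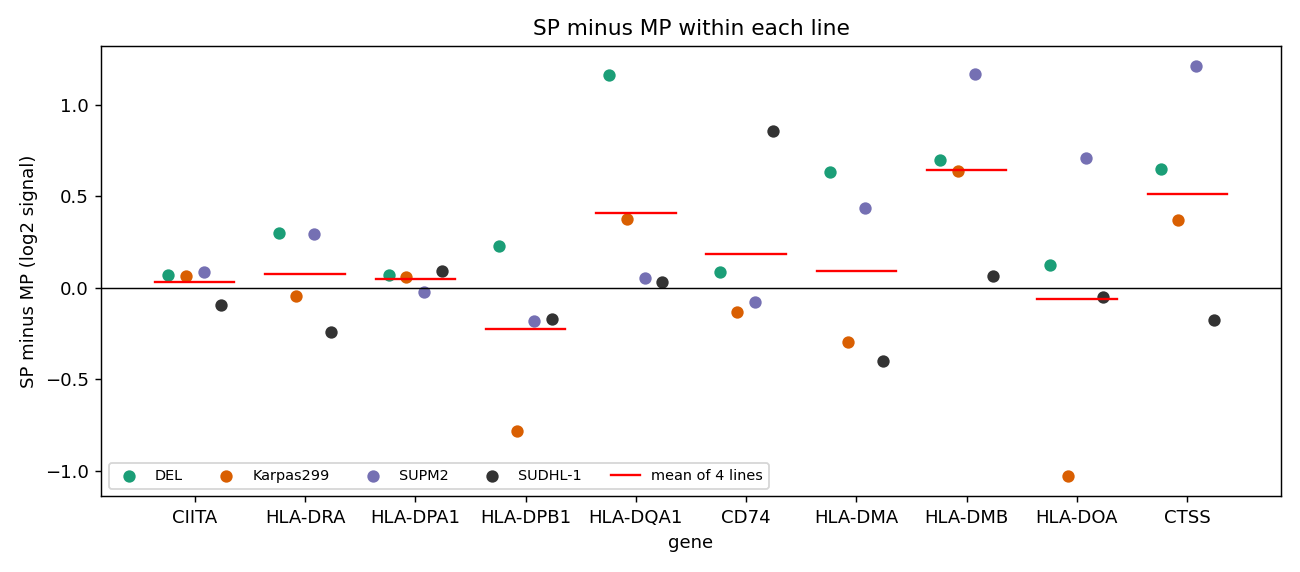
SP minus MP difference in log2 signal within each line (points; 1 array against 1 in DEL, Karpas299 and SUPM2, and means of 3 against 3 in SUDHL-1), with the mean of the 4 lines as a red bar. HLA-DMB and HLA-DQA1 lie above 0 in all 4 lines, and the other genes have at least 1 line below 0.

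By count, SP exceeded MP cells in 10 of 10 members in DEL, 5 in Karpas299, 7 in SUPM2 and 4 in SUDHL-1, beside 52.7%, 49.2%, 57.8% and 49.9% of all genes. These counts rest on the probe set of highest mean for each gene. The 10 genes of DEL were read on the same pair of arrays and are not separate observations of a condition. HLA-DQA1 and HLA-DMB were higher in SP cells of 4 of 4 lines, as were 8.09% of all genes. HLA-DQA1, HLA-DMB, CIITA and CTSS were higher in all 3 lines with single arrays, as were 14.6%. The brightest probe set that names HLA-DQA1 with HLA-DQA2 went the other way in Karpas299, at 12.52 in SP and 12.63 in MP cells. In SUDHL-1 the 3 SP and 3 MP arrays overlapped for all 10 members, and they did not overlap for 7.16% of all genes. The SP effect in SUDHL-1 was set against that in the other lines by an interaction term: HLA-DMB differed by -0.77 and CTSS by -0.92, both with an adjusted p of 1.00, and 0 of 18419 genes passed (661 at an unadjusted p under 0.05, limma).

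The partner chains and other antigen presentation genes were read from lists. Of 8 other class II genes, 3 had a probe set of their own: HLA-DRB5, HLA-DQB1 and HLA-DOB. HLA-DRB5, a second DR beta chain that only some people carry, averaged 6.31 in DEL, 10.25 in Karpas299 and 6.92 in SUPM2, against 2.76 in SUDHL-1. HLA-DQB1, the partner of HLA-DQA1, averaged 4.16 in DEL, 8.27 in Karpas299 and 3.53 in SUPM2, against 3.20 in SUDHL-1, high in Karpas299 alone. The probe sets shared by HLA-DQB1 and HLA-DQB2 differed from that: the brightest averaged 9.28 in DEL, 11.28 in Karpas299 and 9.93 in SUPM2, against 2.95 in SUDHL-1. Probe sets that name 6 genes of the DR beta and DQ beta family read 10.7 to 11.6 on every array of the 3 high lines and 2.89 to 3.86 in SUDHL-1. HLA-DOB averaged 4.91 in DEL, 5.74 in Karpas299 and 5.57 in SUPM2, against 4.28 in SUDHL-1. All 3 genes with their own probe set were called higher in Karpas299 than SUDHL-1, and 2 of 3 in DEL and in SUPM2. Beside these counts, 33.9%, 36.6% and 42.6% of all genes were called higher in DEL, Karpas299 and SUPM2. The DEL call of HLA-DQB1 (0.96) was lost under both other scalings.

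Factors that bind the class II promoters did not move as one. Of 7, those called higher than in SUDHL-1 were 2 in DEL, 4 in Karpas299 and 2 in SUPM2, and those called lower were 1, 1 and 2. After median centring these became 0, 2 and 1 higher and 1, 2 and 2 lower. As deposited, 33.9%, 36.6% and 42.6% of all genes were called higher, so the 2 of 7 in DEL and in SUPM2 lie below that share. After median centring, 2950, 3196 and 3339 of the 18419 genes were called higher. RFXAP, a subunit of the RFX complex, was lower than in SUDHL-1 in all 3 lines, with means of 5.98 in DEL, 5.96 in Karpas299 and 5.83 in SUPM2, against 7.51 in SUDHL-1 (differences -1.52, -1.54 and -1.68, adjusted p under the threshold in each and under both other scalings). RFXANK, another RFX subunit, was higher by 0.78, 1.40 and 1.08 in DEL, Karpas299 and SUPM2; the DEL call was lost after median centring (adjusted p = 0.145). RFX5, the DNA-binding subunit, was called in Karpas299 alone (1.61 above SUDHL-1, adjusted p = 0.000273), as was NFYC, a subunit of NF-Y (1.20, adjusted p = 0.0115, and 0.0807 after median centring). The list medians were 0.58, 0.94 and 0.30, beside all-gene medians of 0.28, 0.31 and 0.37; the SUPM2 median became -0.11 after median centring.

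Of 9 measured genes of the interferon gamma signal and of CIITA repression, 4 were called higher than in SUDHL-1 in each of DEL, Karpas299 and SUPM2, and 0 were called lower. That is near the share of all genes called higher (33.9%, 36.6% and 42.6%). After median centring 3 were called higher in each line, with list medians of 0.19, 0.04 and 0.16. The share of all genes also fell, to 2950, 3196 and 3339 of 18419 called higher. IRF1, a transcription factor that interferon gamma induces and that acts on CIITA, averaged 7.02 in DEL, 7.32 in Karpas299 and 6.53 in SUPM2, against 5.12 in SUDHL-1, and passed in all 3. IFNGR2, the second chain of the interferon gamma receptor, was higher by 1.87 in DEL and 2.24 in Karpas299, and by 0.57 in SUPM2, which did not pass. JAK1, a kinase of that receptor, was higher by 1.12, 1.29 and 1.11 in DEL, Karpas299 and SUPM2. PRDM1, a repressor of CIITA, was called higher in Karpas299 and SUPM2, by 1.14 and 1.71; the Karpas299 call was lost after median centring (adjusted p = 0.0806, limma).

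Most genes of endosomal processing followed the class II genes in direction. Of 15, those called higher than in SUDHL-1 were 11 in DEL, 11 in Karpas299 and 10 in SUPM2, and those called lower were 0, 1 and 1. Of all genes, 33.9%, 36.6% and 42.6% were called higher. After median centring the list counts became 10, 9 and 9 higher and 2, 2 and 3 lower. The lysosomal protease CTSH averaged 7.94 in DEL, 9.70 in Karpas299 and 8.05 in SUPM2, against 5.12 in SUDHL-1. LGMN, the protease legumain, averaged 6.87 in DEL, 4.6 in Karpas299 and 5.43 in SUPM2, against 3.64 in SUDHL-1, and CTSB, a cysteine protease, averaged 11.05, 10.15 and 10.45 in those 3 lines, against 8.01 in SUDHL-1. MARCHF1, a ubiquitin ligase that removes class II from the cell surface, averaged 4.79 in DEL, 4.56 in Karpas299 and 6.22 in SUPM2, against 3.60 in SUDHL-1; its Karpas299 call was lost under both other scalings. LGMN thus peaked in DEL and MARCHF1 in SUPM2, unlike the class II chains, and both peaks passed the test against the other 2 high lines (adjusted p of at most 0.0101, limma).

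Most class I presentation genes were also higher in the 3 lines. Of 16, 10 had a probe set of their own, and those called higher than in SUDHL-1 were 9 in DEL, 9 in Karpas299 and 7 in SUPM2. Those called lower were 0, 1 and 1. Of all genes, 33.9%, 36.6% and 42.6% were called higher. After median centring 8, 6 and 6 of the list were called higher. TAPBP, which loads peptide on class I, was higher by 3.29, 3.94 and 3.71 in DEL, Karpas299 and SUPM2, and TAP1, a subunit of the peptide transporter, by 2.13, 2.67 and 2.60. PSMB8, a subunit of the immunoproteasome, was higher by 1.62, 1.72 and 1.57. ERAP2, a peptide trimming enzyme, ran both ways, at 2.16 in DEL, -0.88 in Karpas299 and -1.27 in SUPM2, all past the test. The list medians of 1.29, 1.28 and 1.09 compare with member medians of 4.07, 5.45 and 4.68.

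Of 6 costimulatory genes, DEL had 2, Karpas299 3 and SUPM2 4 called higher than SUDHL-1, and each line had 1 called lower, beside 33.9%, 36.6% and 42.6% of all genes called higher. After median centring 2, 3 and 2 were called higher and 2, 1 and 2 lower, CD80, a second ligand of CD28, being the added lower call in DEL and SUPM2. CD86, a ligand of the T cell costimulatory receptor CD28, averaged 5.15 in DEL, 4.73 in Karpas299 and 6.66 in SUPM2, against 2.75 in SUDHL-1. ICAM1, an adhesion molecule, was higher by 1.38, 2.45 and 1.56, and CD40, a receptor of the TNF family, was the one lower, with differences of -1.5, -1.19 and -1.26 in DEL, Karpas299 and SUPM2. CD58, the ligand of CD2, passed in Karpas299 and SUPM2 (1.33 and 0.86), and the SUPM2 call was lost after median centring. No gene of any of these lists passed the test between SP and MP cells.

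**Figure D4:**
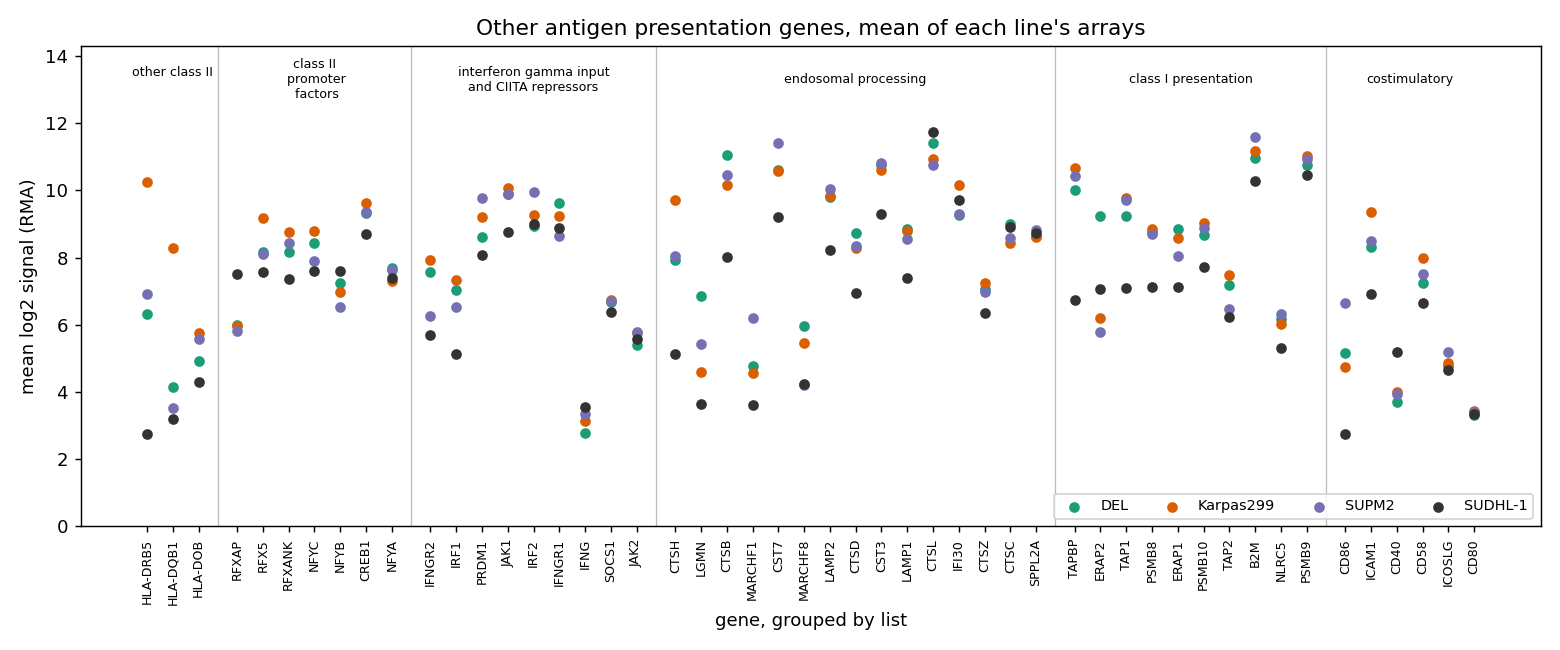
Mean log2 signal (RMA) of each line's arrays for the other antigen presentation genes that have a probe set of their own, grouped by list. SUDHL-1 (black) is lowest for most class I and endosomal genes and highest for RFXAP, NFYB, CD40, CTSL and IFNG.

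Markers of the label and of other cell types were read beside the class II genes. The 7 measured ALCL markers of 8 had a list mean of 9.54 to 10.8 over the arrays of DEL, Karpas299 and SUPM2, against 8.90 to 9.37 in SUDHL-1, and TNFRSF8, the CD30 antigen, averaged 8.76 in DEL, 9.78 in Karpas299 and 7.68 in SUPM2, against 7.02 in SUDHL-1. Its SUPM2 call (0.65) was lost under both other scalings. ALCL markers called higher than in SUDHL-1 numbered 3, 4 and 5 in DEL, Karpas299 and SUPM2, and those called lower 2, 0 and 2. Of all genes, 33.9%, 36.6% and 42.6% were called higher. Median centring gave 3, 4 and 3 higher and 3, 2 and 2 lower. TMOD1 was higher by 1.93, 5.02 and 4.96 and PRF1 by 2.46, 1.70 and 2.58. TIA1, an RNA-binding protein of cytotoxic cells, and IL2RA, the CD25 antigen, were called lower than in SUDHL-1 in DEL (-0.90 and -0.83) and SUPM2 (-0.95 and -0.72). T cell markers differed by line: CD3D averaged 5.68 in DEL, 9.63 in Karpas299 and 9.10 in SUPM2, against 10.06 in SUDHL-1, and CD4 averaged 4.80, 9.60 and 9.49 in DEL, Karpas299 and SUPM2, against 3.93 in SUDHL-1. Of 10 measured, 3, 6 and 5 were called higher than in SUDHL-1 and 2, 0 and 2 lower. Median centring gave 2, 5 and 3 higher and 2, 0 and 2 lower. CD2 was high in SUPM2 alone (mean 9.19), and CD8A averaged 4.79 to 4.82 in every line.

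Markers of cell types known to express class II did not move as one. Beside the counts below, 33.9%, 36.6% and 42.6% of all genes were called higher in DEL, Karpas299 and SUPM2 as deposited. After median centring these were 2950, 3196 and 3339 of 18419 genes. Of 6 measured B cell markers, whose list mean was 4.51 to 5.11 over the arrays of the 3 high lines against 4.03 to 4.33 in SUDHL-1, BLK was called higher than in SUDHL-1 in all 3 lines (by 1.45, 1.68 and 1.59), while MS4A1, the CD20 antigen, averaged 3.01 in DEL, 3.35 in Karpas299 and 3.35 in SUPM2, against 3.02 in SUDHL-1. PAX5 averaged 5.07 in DEL, 6.71 in Karpas299 and 5.26 in SUPM2, against 4.88 in SUDHL-1. It was called higher than in SUDHL-1 in Karpas299 alone (by 1.83, adjusted p = 9.99e-05, limma). Of the 6 B cell markers, DEL, Karpas299 and SUPM2 had 1, 3 and 3 called higher and 0 lower, and 1, 2 and 2 higher after median centring. Of 8 dendritic cell markers, with a list mean of 4.05 to 4.38 against 3.58 to 3.83, the integrin ITGAX averaged 6.41 in DEL, 7.05 in Karpas299 and 7.51 in SUPM2, against 4.68 in SUDHL-1. FCER1A, a chain of the IgE receptor, was called lower than in SUDHL-1 in all 3 lines (-0.66, -0.61 and -0.61). Dendritic cell markers called higher numbered 4, 5 and 5 in DEL, Karpas299 and SUPM2 as deposited, and 1, 1 and 2 under each of the other scalings. The 7 measured monocyte and macrophage markers had a list mean of 5.07 to 5.97 against 5.35 to 5.77, with 2, 2 and 3 called higher and 0, 1 and 1 lower; after median centring these became 2, 1 and 1 higher and 1, 2 and 1 lower. In that list CSF1R, a growth factor receptor, averaged 7.86 in DEL, 7.54 in Karpas299 and 8.27 in SUPM2, against 5.10 in SUDHL-1. CD163, a scavenger receptor, ran the other way, at 7.89 in DEL, 3.70 in Karpas299 and 3.62 in SUPM2, against 9.20 in SUDHL-1. The part of such cells in the class II values was not tested.

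Genes whose pattern was most like that of 4 members were sought among 7352 genes outside the members. These had a standard deviation of at least 0.5 over the 12 arrays. By Pearson correlation over those arrays, IL23R, a cytokine receptor chain, was nearest of these to HLA-DRA (r = 0.992). JUNB was nearest of them to CD74 (r = 0.991) and CCNI2 to CIITA (r = 0.990). The members HLA-DRA and CIITA lay nearer to each other (r = 0.996). IL23R averaged 7.99 in DEL, 8.64 in Karpas299 and 8.20 in SUPM2, against 2.66 in SUDHL-1. Such values say mainly that a gene splits SUDHL-1 from the rest, as 578 genes had r over 0.95 with HLA-DRA, 501 with CD74 and 511 with CIITA. CTSS had a pattern shared by few: C1orf141 (r = 0.96) and DOCK8 (r = 0.96) were the 2 genes over 0.95, followed by the chemokine receptor CXCR4 (r = 0.95), which averaged 4.72 in DEL, 7.67 in Karpas299 and 6.21 in SUPM2, against 3.94 in SUDHL-1. The arrays of a line share that line, so these correlations describe 4 lines more than 12 samples.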

How the data were processed

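Per the labels' protocols, RNA of the sorted SP and MP cells was isolated with a Qiacube, amplified with the NuGEN Ovation Pico kit and read on Affymetrix arrays. The authors deposited log2 signals that they computed using RMA (version not stated), per the submitters' processing notes. RMA pulls low signals together and gives no detection call, so a low value is not shown to be absence. The sources used here do not say whether all 12 arrays were normalized in 1 run.

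Probe sets (33297; 19460 with 1 symbol, 1754 with several, 12083 with none) were named from the platform annotation. The probe set of highest mean stood for each gene. HLA-DRA and CD74 have only probe sets that name several genes, and these were used, giving 18419 genes. Levels were tested on the log2 scale with limma 3.58.1 in R 4.3.3 (lmFit, eBayes; Benjamini-Hochberg adjusted p below 0.05): SP minus MP in SUDHL-1 (6 arrays), SP minus MP over 4 line differences, and 6 contrasts of lines from all 12 arrays with population as a term. The fits were tested on simulated data. Arrays carry no read depth, so their number limits the precision, and DEL, Karpas299 and SUPM2 rest on 1 array per population. Same-numbered SUDHL-1 arrays did not deviate together over all genes, and what a number marks is not stated. All 10 members are named; from each other list the text names up to 4 genes with the largest spread between lines, and it names markers and shared probe sets chosen after their values were seen. The members and lists were chosen with earlier results of these data known. Alternatives were another normalization, median centring, leaving out dim genes, averaged probe sets, a robust variance, a replicate block and leaving out arrays or lines.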

Additional observations from a re-analysis of the deposited data

Results flagged for a closer look

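The SP minus MP difference of CIITA was -0.096 in SUDHL-1 and 0.065 to 0.088 in DEL, Karpas299 and SUPM2. It lay far from the other 3 lines for the width of the group. Chance marks about 1 in 20 such groups, and 10 genes were looked at. The difference in SUDHL-1 had a 95% interval of -0.50 to 0.31 and did not pass the test (adjusted p = 1.00, limma).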

How the results depend on the processing

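No called difference of a member changed sign under any alternative, and the single values that changed their side of the threshold numbered 33 that lost it and 2 that gained it. Against SUDHL-1, DEL, Karpas299 and SUPM2 were called higher in 8 to 9, 10 and 9 to 10 members under all alternatives run. Fits on the SP or MP arrays alone, which leave fewer samples, called fewer genes: 169 with SP and 117 with MP arrays for DEL minus Karpas299 (958 with all), 269 and 257 for DEL minus SUPM2 (1536), 404 and 408 for Karpas299 minus SUPM2 (1971), 3478 and 3069 for DEL minus SUDHL-1 (8282), 3489 and 3779 for Karpas299 minus SUDHL-1 (8934), and 5194 and 5275 for SUPM2 minus SUDHL-1 (10579). The members called were then 1 and 2 for DEL minus Karpas299 (6) and 0 and 0 for DEL minus SUPM2 (3). With the 6 arrays of DEL, Karpas299 and SUPM2 alone, chosen after seeing the data, 444, 869 and 1255 genes were called in their 3 contrasts. The call of HLA-DOA in DEL minus SUDHL-1 held in 11 of 15 alternatives, and was lost under both other scalings and in the SP and MP arrays alone. HLA-DMA in DEL minus Karpas299 (-1.29) lost its call when any of SUDHL-1 SP replicates 1, 2 and 3 or MP replicates 1 and 2 was left out, and HLA-DPB1 in DEL minus SUPM2 (-1.12) gained one without MP replicate 1; neither difference itself changed, since only the spread did. Testing all probe sets, also chosen after seeing the data, called 1 for SP minus MP in SUDHL-1, against 0. Same-numbered SP and MP arrays of SUDHL-1 correlated in their deviations over all genes at -0.00, -0.08 and -0.13. The labels do not say what a number marks, and these values cannot settle whether same-numbered arrays share a sort. With the replicate number as a block, 0 genes and 0 members were called. DEL, Karpas299 and SUPM2 have 1 array per population, so their contrasts borrow spread from SUDHL-1, and the lower medians of the SUDHL-1 arrays limit the balance of higher and lower calls.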
